A study of Mus musculus with 55 samples.

Results

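A set of 102 genes set the control oocytes of a Trim21 experiment apart from the Trim21 oocytes beside them, and these genes are described here across the control oocytes of the other experiments. The members were selected on measured values: a mean of at least 10 CPM (a gene's read count times 1e6, divided by the total count of the library) in one Trim group, a mean of at most 25% of that in the other group, and no overlap between the libraries of the groups. Of 37310 features, 7796 reached that mean in a Trim group and 105 met all 3 conditions, of which Trim21, Tex15 and Mei4 were left out by name. Dhx36 and the Hist genes were also barred by name, but none of them met all 3 conditions. By this rule 51 members were higher in the control libraries and 51 were higher in the Trim21 libraries. The rule therefore called 1.31% of the features at that level, and because it used this contrast, the difference between the Trim groups is given as a description with no test.

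TRIM21 is a ubiquitin ligase that binds the constant part of antibodies. In the Trim-Away method, TRIM21 and an antibody are placed in a cell so that the protein the antibody recognises is degraded within hours. The helicase DHX36 (RHAU) opens G-quadruplexes, folds that guanine-rich RNA and DNA can take. Mouse oocytes build up a large store of maternal transcripts while they grow and largely stop transcription by the end of growth, at the germinal vesicle (GV) stage, so that transcript levels then depend mainly on stability.

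All libraries were labelled as mouse oocytes from ovary. The groups were Trim_control_3h and Trim21_3h (3 libraries each, 3 h, with Dhx36 in the titles), GV_C and GV_cPDS_12h (3 each, the second with cPDS, a ligand of G-quadruplexes, for 12 h), c and c_DRB, rhau_sko and rhau_sko_DRB (2 each, DRB being an inhibitor of transcription elongation), and growing_control and growing_Dhx36_sko (3 each). One collection protocol, which names growing oocytes of control and Dhx36fl/fl;SKO mice, stands for every sample. The expansion of SKO and the driver of the deletion, the strain, age and number of mice, the number of oocytes in a library, and what the Trim control oocytes received are not stated by the labels. The Trim titles carry another run prefix than the GV and c titles, and the growing titles carry none, so oocyte kind, experiment and run cannot be told apart between these sets. Nothing says that replicates came from separate animals, so p-values measure only the spread between these libraries, which may be technical.

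Total counts ran from 7452742 to 32704737 in the Trim libraries, with Trim21_3h replicate 2 the shallowest, and from 23010562 to 65444652 in the other libraries apart from c_DRB replicate 4 (129192) and the library labelled rhau_sko replicate 6 (127927). Dhx36 stood at 29.9, 31.2 and 30.2 CPM in Trim_control_3h and at 6.08, 8.18 and 8.96 CPM in Trim21_3h, and in the library labelled rhau_sko replicate 6 it stood at 46.9 CPM, near the 42.2 and 46.9 CPM of c, against that label. Trim21 stood at 14.4 to 14.9 CPM in Trim_control_3h and at 7782 to 9329 CPM in Trim21_3h. It was at 0 CPM in every GV_C and c library and at most 0.0974 CPM in growing_control. Summed CPM of 25 oocyte genes, all detected in both Trim groups, was 29926 to 35713 in Trim_control_3h and 30651 to 32805 in Trim21_3h. Of 26 granulosa and cumulus markers, 7 were at 0 throughout Trim_control_3h and 8 throughout Trim21_3h, with summed levels of 517 to 561 and 448 to 521 CPM. Most of each sum was Serpine2, at means of 474 and 411 CPM. Of 14 theca and stroma markers, 4 and 6 were at 0, with sums of 10.7 to 14.6 and 7.28 to 11.3 CPM. Of 16 immune, endothelial and blood markers, 8 and 9 were at 0, with sums of 91.4 to 110.2 and 69.5 to 80.9 CPM, most of it C1qb and Pecam1, and these last ranges did not overlap. No gene of these 4 lists was a member. The lists do not hold every gene of such cells, and Ccl2, a monocyte chemokine gene described below, was a member. The part of such cells in the members' levels was not tested. In bulk libraries, fewer cells of a type and less RNA per cell cannot be told apart.

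Some members were plain in one Trim group and at or near 0 counts in the other. Entpd1, which encodes the ectonucleotidase CD39 (mm9, chromosome 19, 40686856 to 40816092, plus strand), stood at 41.6, 32.8 and 44.3 CPM in Trim_control_3h and had no count in the 3 Trim21_3h libraries. Taking the floor of 3 counts over the Trim21 group, it was at least 827-fold lower there. Tox3, a high mobility group box gene (chromosome 8, 92771013 to 92872151, minus strand), ran the other way, at 0, 0 and 0.133 CPM in Trim_control_3h and 48.6, 50.3 and 57.6 CPM in Trim21_3h. Defb8, a beta-defensin gene (chromosome 8, 19445769 to 19447606, minus strand), had no count in Trim_control_3h and stood at 16.5, 14.8 and 14.6 CPM in Trim21_3h, at least 285-fold higher. Pik3ap1, an adaptor of phosphoinositide 3-kinase signalling (chromosome 19, 41346863 to 41459586, minus strand), stood at 0.098, 0 and 0.399 CPM in Trim_control_3h and at 27.9, 23.5 and 27.9 CPM in Trim21_3h. The libraries of each group lay close together for these 4 genes, and the gap between groups was far wider than the spread within them.

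Upstream sequence is shown for these 4 genes because each was at or near 0 in one Trim group, and because Entpd1 and Pik3ap1, on one chromosome and opposite in direction, lay 531 kb apart. They were chosen after their values were seen, and Gm5624 (504), Dcpp1 (474), Dclk1 (225) and Ccdc85a (174) also had ratios above that of Pik3ap1 (159.5). Each line gives the 100 bases before an annotated start (RefSeq, build GRCm38.p6, so these coordinates differ from the mm9 ones above), read 5′ to 3′ on the gene's strand, with runs of 3 or more G or 3 or more C in capitals. Entpd1 has 2 annotated starts there, at chr19:40612266-40612365 and chr19:40659670-40659769. The others are chr19:41385103-41385202 for Pik3ap1, chr8:90348253-90348352 for Tox3 and chr8:19447607-19447706 for Defb8.
Entpd1, first start: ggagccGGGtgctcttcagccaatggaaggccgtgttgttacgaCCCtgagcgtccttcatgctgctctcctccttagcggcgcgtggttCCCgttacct
Entpd1, second start: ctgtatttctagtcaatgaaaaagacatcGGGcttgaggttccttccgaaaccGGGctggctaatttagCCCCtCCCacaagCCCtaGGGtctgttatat
Pik3ap1: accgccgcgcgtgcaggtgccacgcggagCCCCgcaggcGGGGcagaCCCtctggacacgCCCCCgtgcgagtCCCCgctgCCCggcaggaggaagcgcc
Tox3: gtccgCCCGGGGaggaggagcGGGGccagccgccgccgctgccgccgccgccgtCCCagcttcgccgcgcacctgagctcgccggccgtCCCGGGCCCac
Defb8: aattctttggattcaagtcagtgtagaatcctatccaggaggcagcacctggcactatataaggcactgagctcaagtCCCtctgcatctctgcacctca
The windows had little in common. Over 250 bases before the start, G and C made up 84.4% at Tox3 with 40 CG pairs, 71.2% at Pik3ap1, 62.4% and 47.2% at the starts of Entpd1, and 44% at Defb8 with 0 CG pairs.

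A pattern that G-quadruplex searches use, 4 runs of at least 3 G with 1 to 7 bases between runs (on either strand), was looked for in the same 250 bases of the 67 members with a promoter entry. It occurred in 10 of 32 members higher in Trim_control_3h (31.3%) and in 15 of 35 members higher in Trim21_3h (42.9%), Tox3 among them and Entpd1, Pik3ap1 and Defb8 not. It occurred in 25.8% of the 6003 genes at 10 CPM or more with a promoter entry and in 18.5% of all 27025 genes. A gene with several annotated starts was counted if any of them had it. The letters TATAAA, on either strand, stood in 1 of 32 (3.13%) and 6 of 35 (17.1%), against 8.13% and 14.3%. These are counts of letters in a window and say nothing of a structure or a factor there.

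**Figure D1:**
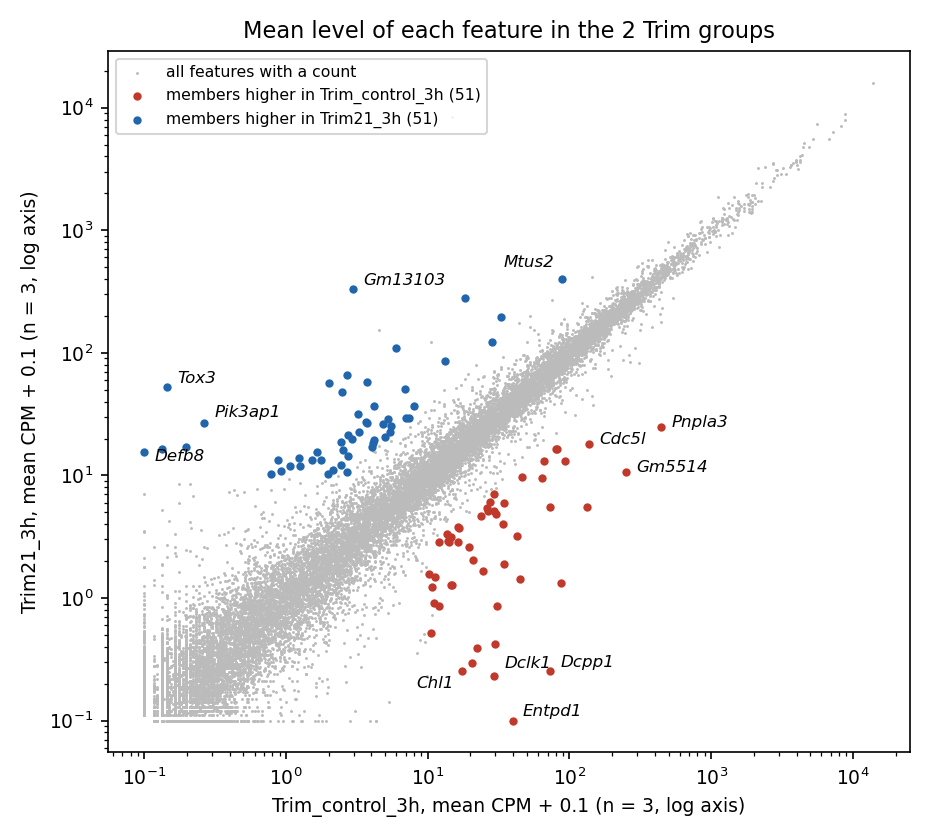
Mean CPM plus 0.1 of each feature in Trim_control_3h (horizontal, log axis) and Trim21_3h (vertical, log axis), n = 3 each, with the 51 members higher in Trim_control_3h in red, the 51 higher in Trim21_3h in blue and all other features with a count in grey. The members lie on both sides of a narrow diagonal, Entpd1 at the bottom edge and Defb8 and Tox3 at the left edge.

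The ratio between the Trim groups had a median of 8.04 over the members higher in Trim_control_3h (4.20 to 827) and of 7.68 over those higher in Trim21_3h (4.08 to 1175). A ratio of 10 or more was reached by 23 and 19 of them, and the mean of the low group was under 1 CPM for 11 and 9. Just inside the threshold lay Fstl5 (4.20), Ankmy2 (4.25) and 5830417I10Rik (4.31) on the control side and Rln3 (4.08), Cdh8 (4.09) and AI597468 (4.14) on the other. Among features not barred by name, just outside lay Gm16761 (3.92), Anxa5 (3.90) and D6Ertd474e (3.74), and Gm13715 (3.99), Acsl4 (3.97) and Slc39a1 (3.91). Dhx36, barred by name, also lay just outside on the control side, at means of 30.4 CPM in Trim_control_3h and 7.74 CPM in Trim21_3h. The values thus ran on across the threshold with no wide gap.

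Members higher in Trim_control_3h are described one by one, and no gene group was tested among them. Pnpla3, a lipid droplet lipase gene of the patatin family (chromosome 15, 83998246 to 84019942), stood at 494, 379.7 and 463 CPM in Trim_control_3h and at 2.63, 68.6 and 2.79 CPM in Trim21_3h. Trim21_3h replicate 2 was far above its 2 partners and still below every control library. Dbt, the transacylase subunit of the branched-chain keto acid dehydrogenase (chromosome 3, 116215988 to 116252894), stood at 151, 109.7 and 139.9 CPM against 5.75, 4.16 and 6.34 CPM. Fasn, fatty acid synthase (chromosome 11, 120667254 to 120685492), stood at 47.8, 24.7 and 54.4 CPM against 3.09, 1.88 and 4.35 CPM. For Dbt and Fasn the groups were wide apart, with the second control library the lowest of its group in both.

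Dcpp1 and Dcpp2 (chromosome 17, 24017843 to 24019820 and 24017848 to 24037754), which encode salivary demilune cell and parotid proteins, overlap on one strand, so their reads cannot be assigned with certainty. Dcpp1 stood at 69.5, 81.0 and 68.2 CPM in Trim_control_3h and at 0.0612, 0.134 and 0.266 CPM in Trim21_3h, a ratio of 474. Btn1a1, a milk fat globule protein gene (chromosome 13, 23548861 to 23557770), stood at 20.6, 17.1 and 23.6 CPM against 0.489, 0 and 0.0887 CPM. Ccl2, a monocyte chemokine gene (chromosome 11, 81849073 to 81850955), stood at 99.8, 60.2 and 86.5 CPM against 12.8, 21.9 and 14.6 CPM. Chl1, a cell adhesion gene of the L1 family (chromosome 6, 103460870 to 103699671), stood at 14.7, 20.8 and 16.4 CPM against 0.0612, 0 and 0.399 CPM. Chl1, Btn1a1 and Dcpp1 were close to nothing in Trim21_3h, whereas Ccl2 was still detected in each library there. Dcpp3, which flanks Dcpp2 and was no member, ran the other way, with means of 3.48 CPM in Trim_control_3h and 13.1 CPM in Trim21_3h.

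Dclk1, a microtubule-bound kinase gene (chromosome 3, 55046448 to 55342986), stood at 26.6, 35.9 and 25.0 CPM against 0.122, 0 and 0.266 CPM. Cdc5l, a core spliceosome protein gene (chromosome 17, 45528841 to 45570656), stood at 99.6, 202 and 108 CPM against 20.2, 10.7 and 22.7 CPM. The second control library was the highest of its group for Dclk1 and Cdc5l, and no library crossed the gap for either. Means in Trim_control_3h of the other named members of this side ran from 29.9 CPM for Gm12586 to 249 CPM for Gm5514, with Rilpl1, A430084P05Rik (now Scimp, an adaptor at the immune synapse), Slc23a3 and Snora47 between them. Snora47, a small nucleolar RNA, overlaps Zbed3 on the same strand, 5830417I10Rik overlaps Syt11 on the opposite strand, and the strand setting of the counting is not given, so their counts are uncertain. Rps2-ps13 is a processed copy of the ribosomal protein gene Rps2, itself at 20.4 ± 2.87 normalised CPM in Trim_control_3h and 49.5 ± 10.02 in Trim21_3h (SD, n = 3 each), and reads of the copy and its parent may be exchanged.

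On the other side, Mtus2, a microtubule-associated protein gene (chromosome 5, 148768896 to 149127641), had the highest level, at 366, 471 and 354 CPM in Trim21_3h against 74.6, 99.0 and 91.6 CPM in Trim_control_3h. Atpbd4, now named Dph6 and needed to make diphthamide on elongation factor 2 (chromosome 2, 114342152 to 114480700), stood at 283, 285 and 273 CPM against 19.06, 17.9 and 18.1 CPM. Xdh, xanthine dehydrogenase (chromosome 17, 74233248 to 74299522), stood at 190.4, 212 and 189 CPM against 29.4, 56.2 and 12.3 CPM. The control libraries were close to each other for Atpbd4 and spread widely for Xdh. Arid5b, a DNA-binding regulator of transcription (chromosome 10, 67558341 to 67741474), stood at 105, 94.1 and 129 CPM against 7.89, 6.86 and 3.00 CPM. Inpp4a, a phosphoinositide 4-phosphatase (chromosome 1, 37356710 to 37467581), stood at 147, 98.6 and 120.4 CPM against 37.3, 17.9 and 29.3 CPM. For these 5 genes the transcript was plain in both groups and the groups did not overlap.

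The predicted genes Gm13058, Gm13089 and Gm13103 lie on chromosome 4 (143184965 to 143443540), 98.9 and 144 kb apart. Reads of related copies may be exchanged among them. Genes that were no members lie between them. Gm13088 had a mean of 12.1 CPM in Trim_control_3h and 14.0 CPM in Trim21_3h, Gm13023 1500 and 1464 CPM, and Gm13084 829 and 941 CPM. Gm13103 stood at 232, 520 and 242 CPM in Trim21_3h against 2.69, 1.76 and 4.19 CPM in Trim_control_3h. Gm13089 stood at 38.2, 118 and 40.2 CPM against 2.25, 1.57 and 3.99 CPM, and Gm13058 at 41.8, 86.4 and 40.4 CPM against 1.52, 2.65 and 1.53 CPM. In each of these 3 members, Trim21_3h replicate 2 stood above its partners. That library was at least 2-fold above both of its partners for 7 of the 102 members (the 3 predicted genes, Gstk1, Zfpm2, Sept3 and Pnpla3) and at least 2-fold below both for Pxdn and Nxnl2, whereas each other Trim library was so for at most 2. The same was not counted over all features, so whether it is particular to the members cannot be told. Without Trim21_3h replicate 2, the rule gave 57 and 53 members, which included 97 of the 102.

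Members with other roles on the Trim21 side included March11, a membrane ubiquitin ligase gene (chromosome 15, 26238803 to 26339331), at 77.9, 118 and 60.0 CPM against 9.60, 15.7 and 14.0 CPM. Ccdc85a, Gm5624, Homer2 (a synaptic scaffold gene) and Gm12351 were also named by the rule, the last at 45.1, 60.4 and 66.2 CPM against 6.37, 3.14 and 1.46 CPM. Trim30a, of the same protein family as TRIM21, was the one member found in 16 fixed gene lists. It stood at 24.5, 23.3 and 27.4 CPM in Trim21_3h against 4.80, 6.12 and 5.19 CPM. In edgeR's quasi-likelihood fit of all 14191 genes of this contrast, 6.26% were called higher and 5.23% lower in Trim21_3h at a Benjamini-Hochberg adjusted p under 0.05. Of 38 TRIM family genes tested, 7 were called higher and 1 lower, Trim15 (log2 fold change of -1.69 ± 0.14 SE, adjusted p = 1.19e-05, edgeR). The 7 hold Trim21 and Trim30a, which met the values of the rule, so their calls follow from the choice, as do those of Tex15 and Mei4 in the meiotic prophase list. Of 25 G-quadruplex helicase genes, 1 was called higher (Ythdc2, 0.88 ± 0.21, adjusted p = 0.0181) and 1 lower (Ddx11, -0.93 ± 0.13, adjusted p = 6.66e-04). Neither is Dhx36, of which no test is given here. Its means were 30.4 CPM in Trim_control_3h and 7.74 CPM in Trim21_3h. Of 15 interferon response and RNA sensing genes tested, 1 was called higher and 2 lower, with a median log2 fold change of -0.01 beside -0.01 for all genes. The numbers called higher and lower were 0 and 1 of 24 oocyte genes (Ddx4), 1 and 0 of 8 granulosa and cumulus markers (Cyp19a1), 0 and 0 of 4 theca markers, and 0 and 1 of 4 immune, endothelial and blood markers (C1qb). They were 5 and 5 of 31 meiotic prophase genes, 0 and 1 of 39 meiotic maturation genes, 1 and 1 of 7 zygotic activation genes, 1 and 2 of 12 immediate early genes and 1 and 1 of 25 p53 targets. They were 3 and 0 of 27 heat shock genes, 2 and 0 of 25 P-TEFb and elongation genes, 0 and 0 of 14 mitochondrial genes and 5 and 6 of 82 ribosomal protein genes.

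Within 1000 kb, 15 pairs of neighbouring members were found. Of these, 9 ran the same way, such as Gm13058 with Gm13089, Reg2 with Reg3g (58.2 kb apart, related lectin genes whose reads may be exchanged) and Fasn with Tex19.2. The other 6 ran opposite ways, such as Pxdn with Sntg2 (157 kb), Qpct with Cdc42ep3 (244 kb) and Entpd1 with Pik3ap1. The nearest genes at 10 CPM or more beside a member that were no members stayed within 2-fold between the Trim groups at 181 of 196 places (92.3%), against 95.7% of all features at that level. Exon length had a median of 2459 bases over members higher in Trim_control_3h and 3191 over those higher in Trim21_3h, against 3582.5 over all features at 10 CPM or more.

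Set against the control oocytes of the other experiments, most members in GV_C sat with Trim21_3h and not with Trim_control_3h. The other libraries came in a separate table, 101 members were matched to it by exon coordinates (Zfp708 was not), and levels across the tables are described without a test. Nearness was taken on group means of log2(CPM + 1). In GV_C, 44 of 51 members higher in Trim_control_3h (86.3%) and 41 of 50 higher in Trim21_3h (82%) lay nearer to Trim21_3h. Among all features at 10 CPM or more, split by the same directions, these shares were 52.6% and 64.6%. In c, 33 of 51 (64.7%) and 37 of 50 (74%) lay nearer to Trim21_3h, close to the 61.7% and 68.6% of all features. In growing_control, 43 of 51 (84.3%) and 27 of 50 (54%) did, against 76.4% and 25.6%. With TMM-scaled library sizes the shares of all features moved to 49.9% and 67.1% in GV_C, 69.5% and 61.1% in c, and 46.8% and 58.1% in growing_control. The members then stood at 86.3% and 82%, at 68.6% and 72%, and at 78.4% and 70%. So the members' shares were above those of all features in GV_C and growing_control under both scalings, and in c the control side was above (64.7% against 61.7%) or below (68.6% against 69.5%) with the scaling. Members were chosen for a wide gap between the Trim groups, so these shares were given no test.

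**Figure D2:**
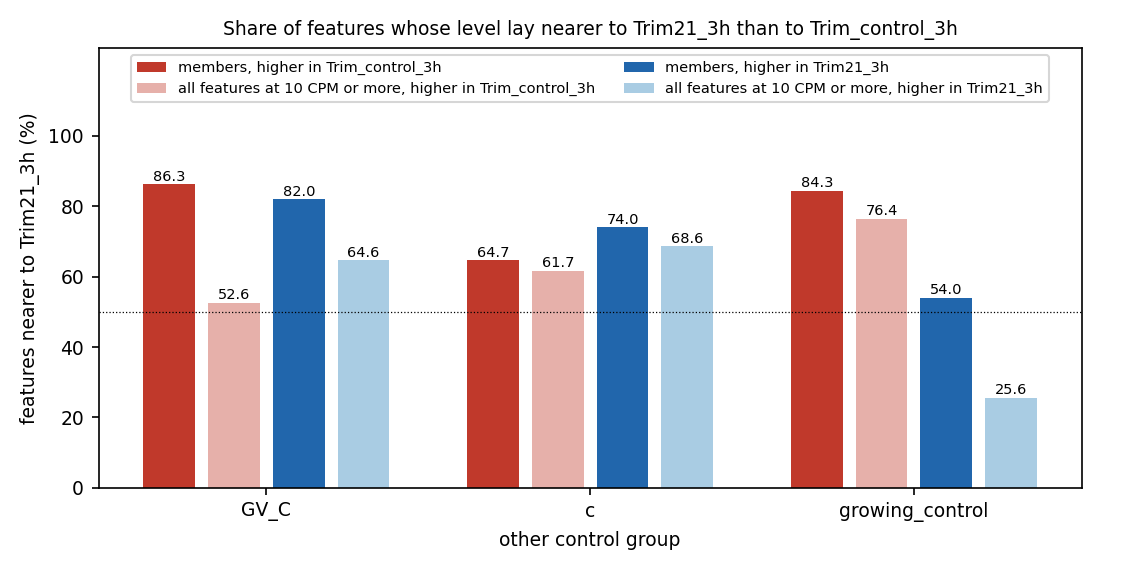
Percentage of features whose mean in GV_C, c or growing_control lay nearer to Trim21_3h than to Trim_control_3h on log2(CPM + 1), for members (dark bars) and for all features at 10 CPM or more (pale bars), split by the direction of the difference between the Trim groups. In GV_C the members stand at 86.3% and 82.0%, above the 52.6% and 64.6% of all features, and in c at 64.7% and 74.0% beside 61.7% and 68.6%.

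The rule itself was applied to each Trim group against each other control. Against GV_C, Trim_control_3h was higher by the rule for 40 of the 51 members of its side (2.12% of 8076 features) and lower for 36 of the 50 of the other (1.98%). Trim21_3h against GV_C was higher for 0 of 51 and 8 of 50 members (1.19% of 7971 features) and lower for 2 of 51 and 2 of 50 (0.778%). Against c, Trim_control_3h was higher for 29 of 51 (1.16% of 8100 features), c was higher for 30 of 50 (2.28%), and 1 of 51 was higher in c. Trim21_3h against c was higher for 1 of 51 and 8 of 50 (0.613% of 7995 features) and lower for 10 of 51 and 1 of 50 (0.951%). Against growing_control, Trim_control_3h was higher for 42 of 51 (18.3% of 7603 features) and growing_control for 19 of 50 (1.74%). Trim21_3h against growing_control was higher for 2 of 51 and 17 of 50 (17.7% of 7588 features) and lower for 4 of 51 and 1 of 50 (1.37%). These comparisons share a Trim group with the rule that chose the members, so the shares follow in part from the choice.

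**Figure D3:**
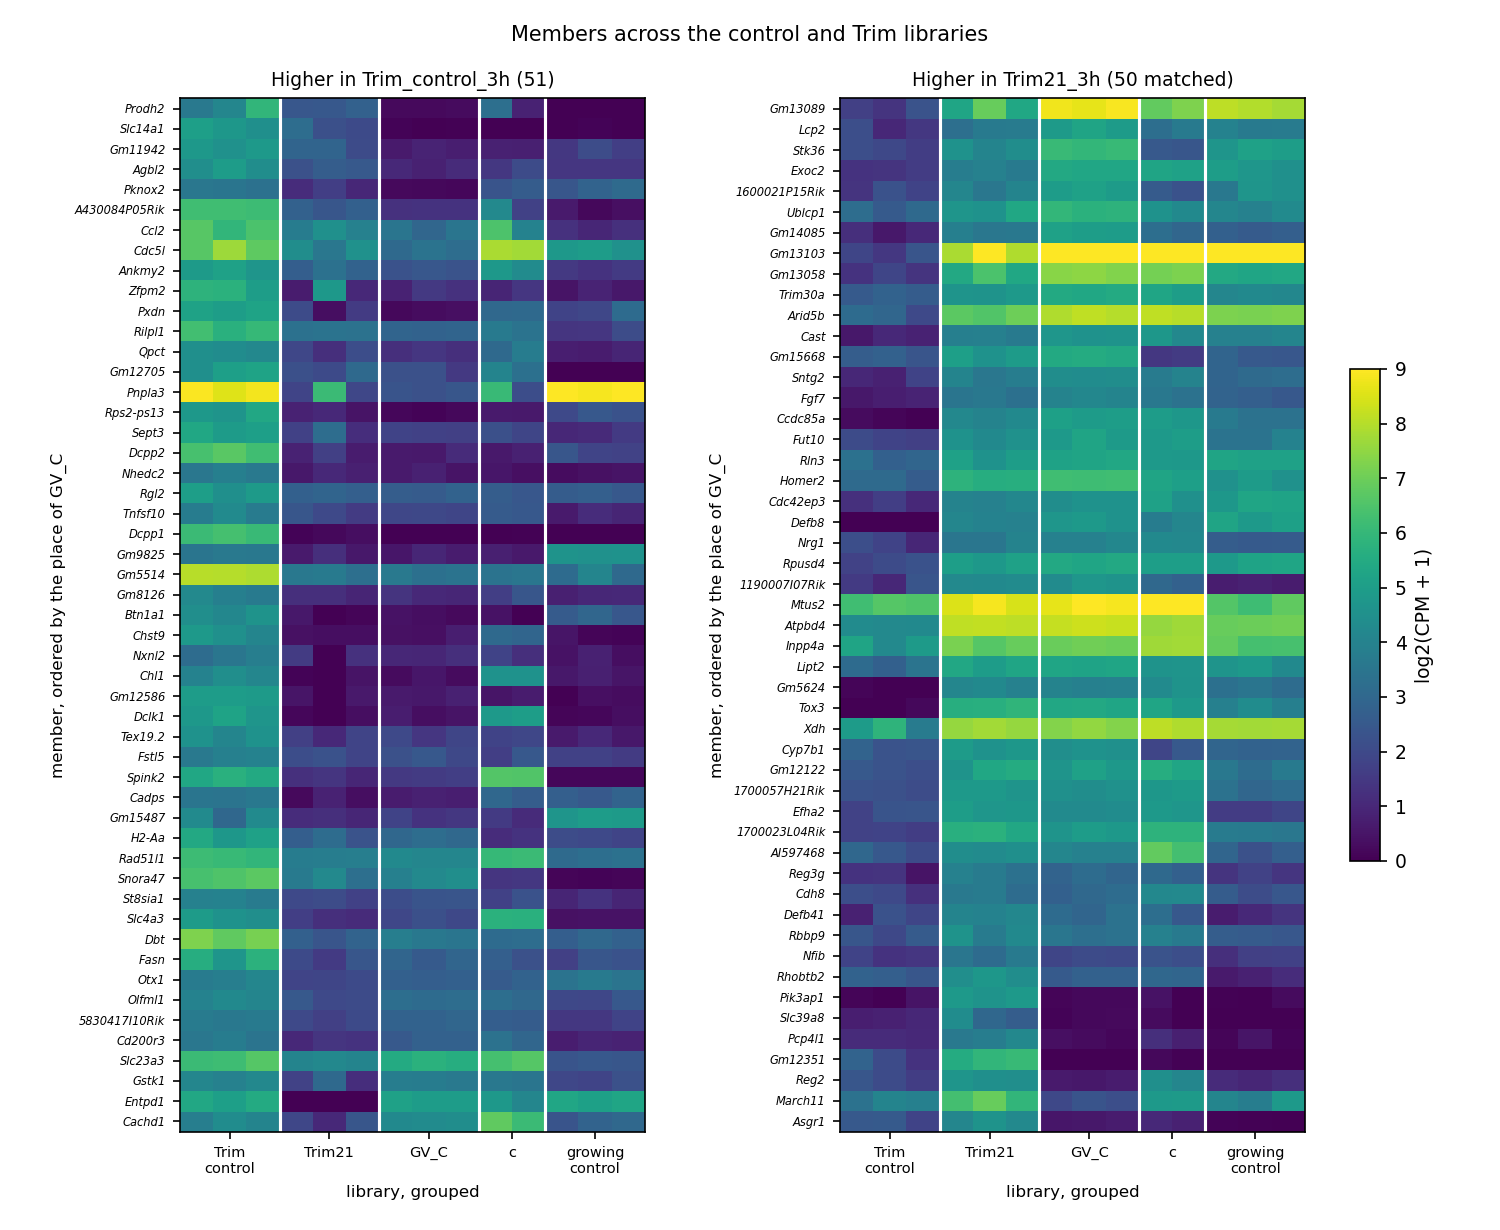
log2(CPM + 1) of the 101 matched members (rows, ordered from the top by the place of GV_C relative to the Trim groups) in each library of Trim_control_3h, Trim21_3h, GV_C, c and growing_control (columns), with the 51 members higher in Trim_control_3h at left and 50 higher in Trim21_3h at right. In most rows GV_C has the shade of Trim21_3h, with Entpd1 near the bottom at left and Pik3ap1 and Gm12351 near the bottom at right among the exceptions.

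In 26 members of the control side and 25 of the Trim21 side, GV_C, c and growing_control all lay nearer to Trim21_3h. This joint pattern, and the joint patterns given below, were counted over members alone. No share of all features stands beside them, so they are not read as a trait of the members. Dcpp1 was at 0 CPM in the 3 GV_C libraries, at 0 and 0.0488 CPM in c and at 0.0243, 0 and 0 CPM in growing_control, so its 68.2 to 81.0 CPM in Trim_control_3h had no like level in these libraries. Gm5514 stood at 8.96 to 11.5 CPM in GV_C, 9.70 and 10.5 CPM in c and 7.40 to 15.97 CPM in growing_control, against 235 to 259.8 CPM in Trim_control_3h. Dbt stood at 10.3 to 13.5, 7.76 and 8.35, and 5.48 to 7.17 CPM in the same order. Here every other control library was below every Trim control library, by a wide gap. On the Trim21 side, Atpbd4 stood at 294 to 315 CPM in GV_C, 192 and 211 CPM in c and 118 to 131 CPM in growing_control. Tox3 stood at 37.7 to 42.1, 27.8 and 37.7, and 13.9 to 19.9 CPM, and Defb8 at 23.2 to 27.3, 12.9 and 16.6, and 27.97 to 37.2 CPM. Both were at or under 0.133 CPM in every Trim control library and plain in every other control library.

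In a few members all 3 references lay nearer to Trim_control_3h. Entpd1 was the one member of the control side that lay nearer to Trim_control_3h in all 3 references, at 30.1 to 34.7 CPM in GV_C, 16.7 and 27.1 CPM in c and 33.4 to 38.9 CPM in growing_control. It was at 26.02, 13.1 and 16.1 CPM in the 3 deep libraries of rhau_sko and rhau_sko_DRB and at 26.5 to 37.5 CPM in growing_Dhx36_sko, so 0 counts were seen in Trim21_3h alone among the library groups. Pik3ap1 ran the other way, with 0.0917 to 0.141 CPM in GV_C, 0.0244 and 0.372 CPM in c and 0 to 0.187 CPM in growing_control. No deep library outside Trim21_3h exceeded 0.547 CPM of Pik3ap1. GV_C, c and growing_control also lay nearer to Trim_control_3h in 7 other members of the Trim21 side (Pcp4l1, Slc39a8, Gm12351, Nfib, Asgr1, Rhobtb2 and March11). March11 was high outside Trim21_3h too, at 53.4, 57.9 and 61.1 CPM in growing_Dhx36_sko and 107, 155 and 119 CPM in the deep rhau_sko and rhau_sko_DRB libraries. Gm12351 was at 0 CPM in every GV_C and growing_control library, and Slc39a8, the zinc and manganese transporter ZIP8, was at 20, 6.98 and 5.28 CPM in Trim21_3h and at most 0.213 CPM in the other control groups outside the Trim experiment.

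Other members split the references. For 11 members of the control side, c alone lay nearer to Trim_control_3h, among them 5 genes given here, chosen after their values were seen. Dclk1 stood at 28.3 and 31.1 CPM in c, Chl1 at 23.0 and 23.2 CPM, and Spink2, a protease inhibitor gene, at 94.9 and 92.5 CPM. In GV_C these genes did not exceed 0.657, 0.473 and 2.17 CPM, and in growing_control 0.25, 0.72 and 0.125 CPM. Slc4a3, an anion exchanger gene, stood at 52.4 and 51.6 CPM in c, 2.78 to 3.60 CPM in GV_C and 0.316 to 0.344 CPM in growing_control, and Cdc5l at 229 and 213 CPM in c, 7.52 to 9.84 CPM in GV_C and 22.4 to 30.7 CPM in growing_control. Both Trim_control_3h and c were thus high for genes that were nearly silent, or low, in GV_C. For 5 members growing_control alone lay nearer to Trim_control_3h, among them Pnpla3 at 466 to 543 CPM in growing_control and Btn1a1 at 4.46 to 6.89 CPM. For 11 members of the Trim21 side growing_control alone lay nearer to Trim_control_3h, led by Mtus2 at 72.0 to 110.9 CPM.

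**Figure D4:**
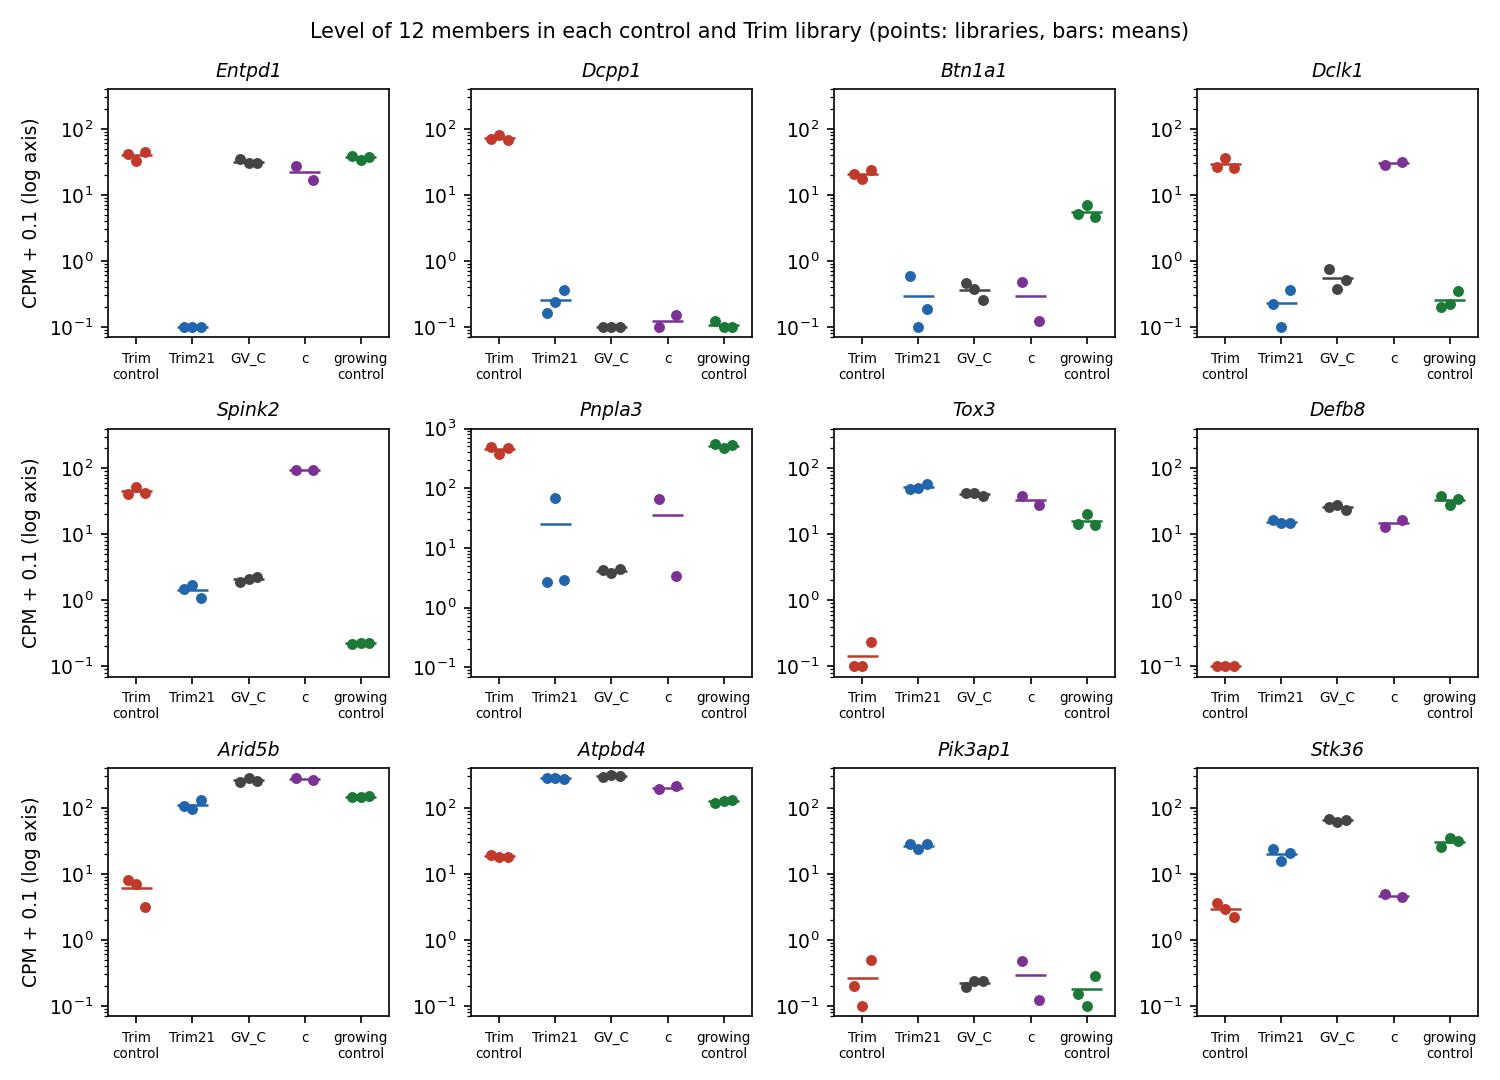
CPM plus 0.1 (log axes) of 12 members in each library of Trim_control_3h, Trim21_3h, GV_C, c (n = 2) and growing_control (n = 3 for the others), with bars at the group means. Entpd1 is at 0 in Trim21_3h and at 16.7 CPM or more in the other groups, Pik3ap1 is at 23.5 CPM or more in Trim21_3h and at most 0.399 CPM in the others, Dclk1 and Spink2 are high in Trim_control_3h and c, and Tox3 and Defb8 are at most 0.133 CPM in Trim_control_3h and above 12 CPM elsewhere.

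Some of the same genes differed between libraries of one group. Between the 2 libraries of c, a ratio of at least 4 with at least 10 CPM in the higher library was found for 9 of 7890 features (0.114%), and 3 of these 9 were members. They were Pnpla3 (66.9 and 3.32 CPM), Ccl2 (88.2 and 14.96 CPM) and A430084P05Rik (17.8 and 2.37 CPM), each higher in replicate 1, and this count was made after their values were seen. Among 53 members at 10 CPM in c, that was 5.66%. No member differed so within GV_C, growing_control, growing_Dhx36_sko or GV_cPDS_12h, in which 1, 1, 3 and 1 features of all did, or within rhau_sko_DRB, in which 28 did. The mean of c for these 3 genes therefore depends on which library is read.

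The next comparisons use libraries that played no part in choosing the members, and they were tested. In GV oocytes with cPDS for 12 h against GV_C, members of both sides moved in both directions, mostly by less than 2-fold. Of 92 members tested, 30 rose and 15 fell, beside 23.4% and 27.4% of 16115 genes (quasi-likelihood test of edgeR, Benjamini-Hochberg adjusted over all genes tested). By side, 21 of 46 Trim21-side members rose and 10 fell, and 9 of 46 control-side members rose and 5 fell, and the difference between sides was not tested. Calls with a change of at least 2-fold made up 7.61% of the members tested and 14.3% of all genes tested. Xdh fell from 167 ± 14.1 to 15.4 ± 2.11 normalised CPM (SD, n = 3 each), by 3.44 on the log2 scale (adjusted p = 2.22e-12, edgeR). Inpp4a fell from 124 ± 5.29 to 33.7 ± 1.75 CPM (-1.88 ± 0.08 SE, adjusted p = 3.42e-11), and Homer2 and the germline gene Tex19.2 fell by 0.75 and 2.20. Both Xdh and Inpp4a were thus lower after cPDS in GV oocytes and lower in Trim_control_3h than in Trim21_3h. Tox3 rose from 40.0 ± 2.52 to 81.7 ± 8.06 CPM (1.03 ± 0.09 SE, adjusted p = 1.19e-07). Gm13058, Gm13089 and Gm13103 rose by 0.82, 0.96 and 0.84. Entpd1 rose by 0.50 (adjusted p = 1.94e-04).

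In growing oocytes, more members of each side were higher than lower in growing_Dhx36_sko against growing_control. Of 91 members tested, 48 rose and 13 fell, beside 28.5% and 25.2% of 14081 genes. By side, 25 of 45 control-side members rose and 8 fell, and 23 of 46 Trim21-side members rose and 5 fell. Calls with a change of at least 2-fold made up 45.1% of the members tested and 27.7% of all genes tested. Without TMM scaling the all-gene median log2 fold change was 0.21 in place of 0.02, 53 members rose and 8 fell, and higher calls made up 66.9% of all calls in place of 53.1%. Zfpm2, which encodes the GATA cofactor FOG2, rose from 0.626 ± 0.267 to 16.9 ± 3.78 CPM after normalisation (SD over 3 libraries each), which is 4.77 ± 0.27 (SE) in log2 units (adjusted p = 1.59e-09, edgeR). Slc23a3, an orphan relative of the ascorbate transporters, rose from 4.66 ± 0.265 to 25.2 ± 3.60 CPM (2.44 ± 0.16, adjusted p = 8.64e-09). Gm13058 and Gm13089 rose 7.59-fold and 6.12-fold, while Gm13103 near them did not pass the test (0.07 ± 0.15, adjusted p = 0.723). Cdc42ep3, an effector of CDC42, fell from 35.7 ± 5.31 to 5.40 ± 2.52 CPM (-2.72 ± 0.24, adjusted p = 1.83e-07). The homeobox gene Otx1, the kinase gene Stk36 and Btn1a1 fell by 2.31, 1.29 and 1.84. Pnpla3 rose from 549 ± 62.3 to 1008 ± 254 CPM, and Entpd1 fell by 0.43 (adjusted p = 0.0242).

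The second sko experiment was fitted on its 6 deep libraries with DRB as a term, leaving out c_DRB replicate 4 and the library labelled rhau_sko replicate 6. Of 96 members tested, 35 were higher in rhau_sko and 23 lower, beside 19.9% and 17.9% of 15923 genes. By side, 16 of 49 control-side members were higher and 11 lower, and 19 of 47 Trim21-side members were higher and 12 lower. Calls with a change of at least 2-fold made up 39.6% of the members tested and 18.9% of all genes tested. Zfpm2 again had the largest change of any member tested, from 0.93, 1.71 and 1.33 CPM in c and c_DRB to 93.5, 110.0 and 69.3 CPM in the deep sko libraries (6.13 ± 0.26 SE, adjusted p = 3.50e-07, edgeR). In the Trim experiment Zfpm2 ran the other way relative to Dhx36, at 55.2, 52.8 and 31.3 CPM in Trim_control_3h and 0.612, 27.0 and 1.06 CPM in Trim21_3h. Reg2, March11 and Cd200r3, a receptor of the CD200R family, rose by 2.18, 2.05 and 2.94. Slc4a3, Gstk1 (a glutathione transferase gene), Exoc2 (an exocyst subunit gene) and the sulfotransferase gene Chst9 fell by 1.31, 2.51, 1.38 and 4.30. With all 8 libraries of the experiment, 29 members were higher and 14 lower, and without c_DRB replicate 3 or without rhau_sko replicate 5, 14 were lower. Tox3 rose in both sko experiments, by 0.75 in growing oocytes (adjusted p = 0.00147) and by 1.64 here (adjusted p = 3.25e-05).

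**Figure D5:**
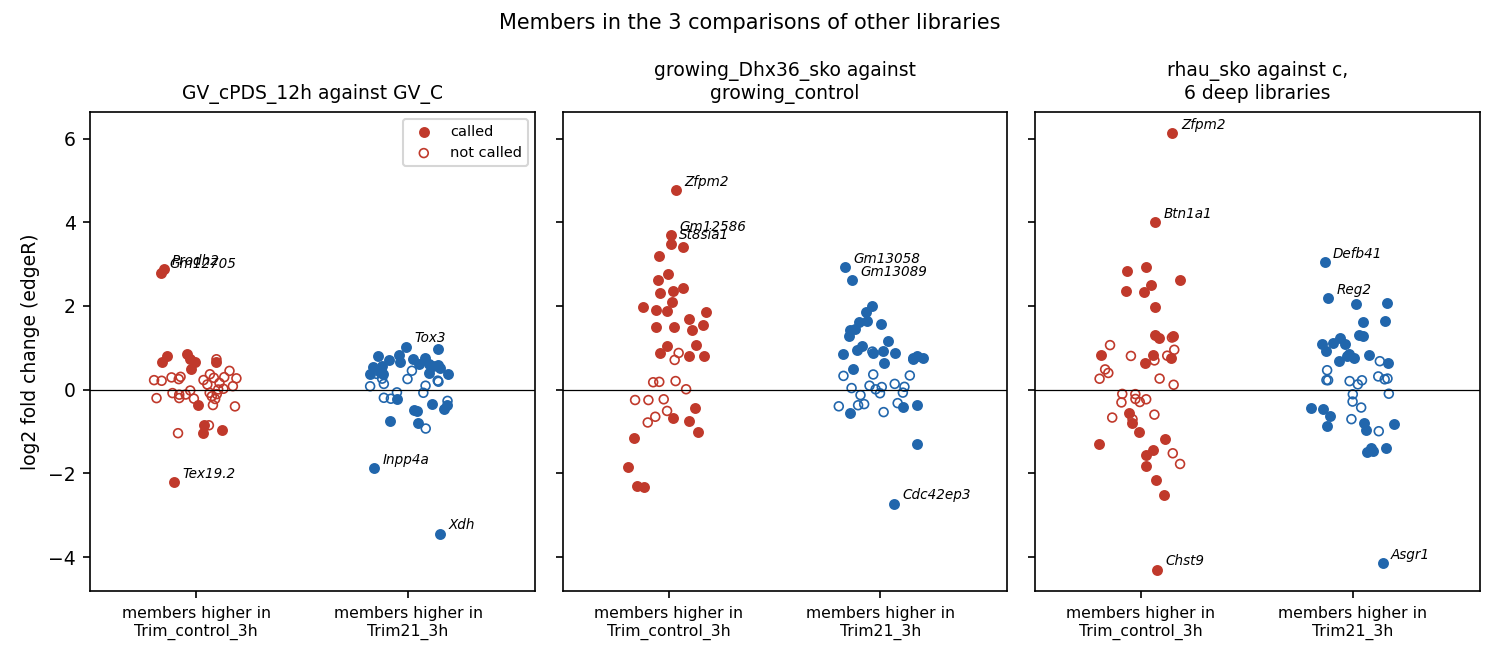
log2 fold changes from edgeR of the members in 3 comparisons that did not use the Trim libraries, GV_cPDS_12h against GV_C, growing_Dhx36_sko against growing_control and rhau_sko against c, with members higher in Trim_control_3h in red and those higher in Trim21_3h in blue, and filled points for those past an adjusted p under 0.05. Zfpm2 is the highest point in both sko comparisons at 4.77 and 6.13, and Xdh is the lowest in the cPDS comparison at -3.44.

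Control oocytes of the growing and GV sets differed at many members, and this difference depends on scaling. Of 94 members tested, 26 were higher and 39 lower in growing_control than in GV_C, beside 28.2% and 32.5% of 15355 genes. Calls with a change of at least 2-fold made up 41.5% of the members tested and 34.4% of all genes tested. Without TMM scaling the all-gene median was -1.01 in place of -0.09, 18 members were higher and 65 lower, and higher calls made up 9.99% of all calls in place of 46.4%. Pnpla3 was 242-fold higher in growing_control, at 709.7 ± 80.9 against 2.93 ± 0.235 normalised CPM (7.92 ± 0.16, adjusted p = 1.24e-12, edgeR). Gm9825, Gm15487 and the homeobox gene Pknox2 were higher by 6.04, 4.78 and 6.28. Snora47, 1190007I07Rik, Slc23a3 and Efha2 (now Micu3, a regulator of mitochondrial calcium uptake) were lower, at log2 fold changes of -6.72, -4.16, -2.54 and -2.17. Of these 8 genes, 6 belong to the control side, and the kind of oocyte, the experiment and the run cannot be told apart here.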

How the data were processed

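RNA sequencing counts of 26 of the 55 samples of the series were used, and the other assays were not analysed here. Per the file headers, both deposited tables hold unscaled read counts for each gene with featureCounts columns. Mouse build mm9, featureCounts 2.0.1, the aligners STAR 2.5.2b and HISAT2 2.1.0, and the trimmers cutadapt 1.15 and fastp 0.21.0 are named in the submitters' processing notes, with no role or order. How strand and multiply assigned reads were handled is not given in the sources used here. The Trim table (37310 features) and the other table (33924) were matched by exon coordinates (33581 features), and 0 sample columns stayed unmapped.

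CPM were taken on column sums. A pseudocount of 1 was used for nearness on the log2 scale, and a group at 0 was set to a floor of 3 counts over the group, which covers counting error only. Tests used edgeR 4.0.16 in R 4.3.3 on the counts: filterByExpr (minimum count 10), TMM scaling, the quasi-likelihood test, and Benjamini-Hochberg adjustment over all genes tested at 0.05. Standard errors were derived from the F statistic (log2 fold change without sign, divided by the root of F). Normalised CPM are on TMM-scaled library sizes. The code was tested on simulated counts. Alternatives were DESeq2 1.42.0, no TMM, no filter, other thresholds and pseudocounts, the replicate number as a block, and leaving out each library.

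The members, gene lists and tests were chosen with earlier results of these data known. Named members are, on each side, the 12 with the highest level and the 6 with the largest ratio, the 3 on either side of the ratio threshold, any member in a gene list, and the 4 called with the smallest p each way in every other comparison. Other genes were named after their values were seen, and results on 2 of the named members are not reported here. The 16 lists were oocyte genes, the 3 sets of somatic markers, meiotic prophase, meiotic maturation, zygotic genome activation, immediate early, interferon, p53 target and heat shock genes, G-quadruplex helicases, P-TEFb and elongation, the TRIM family, the mitochondrial genome and ribosomal proteins. Promoters are from RefSeq, build GRCm38.p6.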

Additional observations from a re-analysis of the deposited data

Results flagged for a closer look

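In 4 members of the control side, every deep sko library moved one way in growing oocytes and the opposite way in the second experiment. These differences between the experiments were not tested. The 4 were the members called in both experiments, in opposite directions, at 2-fold or more and with no overlap of libraries. The share of all genes that did so was not counted, so no trait of the members is read from this. The library labelled rhau_sko replicate 6 was left out here too. Btn1a1 changed by -1.84 on the log2 scale in growing oocytes and by 4.00 in the second experiment, where it stood at 0.372 and 0.0244 CPM in c. Cdc5l changed by 1.98 and by -1.55, Qpct, which encodes a glutaminyl cyclase, by 1.06 and by -2.16, and Spink2 by 3.19 and by -1.82. Qpct stood at 7.44 and 12.8 CPM in c against 0.595 to 0.905 CPM in growing_control.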

How the results depend on the processing

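The number of members moved with the thresholds of the rule. With a mean of at least 20 CPM, 33 members were higher in Trim_control_3h and 28 in Trim21_3h. With a mean of at least 5 CPM, 80 were higher in Trim21_3h, with a ratio of at least 3 they were 79 and 82, and with a ratio of at least 8 they were 26 and 23. Leaving out one Trim library at a time gave 50 to 57 and 48 to 57 members, and TMM-scaled library sizes gave the same 102. Over all settings run, members nearer to Trim21_3h in GV_C numbered 44 to 45 and 41, in c 31 to 35 and 36 to 38, and in growing_control 40 to 44 and 27 to 35. In the Trim contrast 1630 genes were called, 928 to 1936 leaving out one library, with 1043 without Trim21_3h replicate 1 and 928 without replicate 3. Without TMM scaling, 8 members were lower in the growing sko comparison and 65 in growing_control against GV_C. In the second sko experiment 6020 genes were called, 3917 with all 8 libraries and 3699 to 6066 leaving out one, and the members called lower were 23, 14 with all 8 libraries and 14 to 24 leaving out one. The cause of these moves was not tested beyond the loss of a library. Of 304 alternatives for 32 tests of single named members, 304 kept direction and call. These 32 tests were those of the members called with the smallest p each way in each comparison. Their stability therefore follows in part from that choice. Weaker calls of named members, such as Entpd1 in the growing sko comparison, were not among the 32, and their stability was not tested.

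Deviations of same-numbered libraries gave mixed correlations in the Trim contrast (0.37, 0.33 and -0.21), beside -0.51 to 0.39 for libraries of unlike number. In the cPDS contrast they were negative (-0.22, -0.28 and -0.16), beside 0.02 to 0.26. The numbers were not read as a pairing. With the replicate number as a block, 1762 genes were called in the Trim contrast and 7559 in the cPDS contrast (8191 without), and 30 members rose and 12 fell with cPDS.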
